A study of Mus musculus with 12 samples.

Results

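The BCL2 family decides whether the outer membrane of the mitochondrion stays closed or opens during apoptosis, and the 10 family transcripts described here are 3 anti-apoptotic genes (Mcl1, Bcl2 and Bcl2l1), 5 BH3-only genes (Bmf, Bcl2l11, Bbc3, Pmaip1 and Bad) and 2 effectors (Bax and Bak1). They were picked by symbol from the 49671 genes in the count tables, and the choice rested on the opposite serum responses of Mcl1 and Bmf in these same libraries. The serum responses are therefore given as a description with no test. The rule of that choice did not use the effect of Lap2 siRNA, which is tested, although it is measured on the same libraries. For Mcl1 and Bmf the p-values of that test are therefore not free of the choice. The 10 genes and the other gene lists below were also chosen with earlier results of these data known. Their calls and counts are therefore not wholly free of the choice either. All 10 genes passed the filter on low counts, which left 18668 genes (3 or more libraries with a count above 1).

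NIH 3T3, a mouse embryonic fibroblast line, was transfected with a control siRNA or with 1 siRNA against all Lap2 isoforms (the products of Tmpo), and total RNA depleted of ribosomal RNA was sequenced. Cells of each siRNA were kept in 0.3% FBS overnight (starved) or were then given 15% FBS for 45 min (stimulated). This gave 4 groups of 3 libraries: starved control, stimulated control, starved Lap2-depleted and stimulated Lap2-depleted. Every group is the same cell line, and a single siRNA sequence was used per arm, so that effects of this siRNA on other transcripts cannot be told apart from those of Lap2 loss. The labels do not say whether the 3 libraries of a group came from separate cultures, and the p-values measure the spread between these libraries, which may be technical. Replicate numbers below are the order of the labels within each group. The labels give no replicate number and no pairing between groups.

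Anti-apoptotic proteins of the family hold the effectors BAX and BAK in check. BH3-only proteins respond to stress: they bind the anti-apoptotic proteins and some also engage the effectors directly, after which BAX and BAK form pores and cytochrome c leaves the mitochondrion. In fibroblasts, serum growth factors are known to favour survival, MCL1 is a protein of short half-life whose transcript is inducible, and Bmf and Bcl2l11 are known for transcription that rises when growth factors are withdrawn.

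Depth was 18026298 to 26265253 counted reads per library. The siRNA target Tmpo had 2775 to 3264 normalized counts in the 6 control libraries and 607 to 1175 in the 6 Lap2-depleted ones. Its log2 fold change with Lap2 siRNA was -1.38 ± 0.08 (SE) in 0.3% FBS and -2.17 ± 0.08 in 15% FBS (adjusted p = 8.7e-16 and 3.8e-19, edgeR). The depletion thus differed between the serum conditions, by -0.79 ± 0.11 (adjusted p = 3e-06, edgeR). In Lap2-depleted cells Tmpo fell with serum (-0.62 ± 0.08, adjusted p = 1.9e-07, edgeR). Whether this unequal depletion bears on differences in Lap2 effect between the conditions was not tested. A normalized count is a read count scaled to the mean library after TMM normalization. Of the fibroblast markers Col1a1, Col1a2, Col3a1, Vim, Fn1, Pdgfrb and S100a4, all 7 were found in every library, whereas the summed markers of immune, epithelial and endothelial cells reached at most 53.9, 37.3 and 37.6 normalized counts per library. Cd3e and Cldn4 were at 0 throughout. The summed fibroblast markers were lower in both Lap2-depleted groups (means of 568300 and 650000 normalized counts against 815900 and 898100), and their part in the results below was not tested. In bulk RNA, fewer cells with a transcript and less of it per cell cannot be told apart. No library stood far apart: starved Lap2-depleted replicate 1 differed from its group mates by a root mean square of at least 0.590 log2 units, against 0.548 between the other 2, and calls on the 10 transcripts that change without it are given both ways.

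The promoters of the pair that defined the choice, Mcl1 and Bmf, and of Bcl2l11, which among the 10 genes had the lowest adjusted p for Lap2 siRNA in starved cells, are shown because serum-responsive transcription is read from such sequences. Each run is the 250 bases before a RefSeq transcription start (GRCm38.p6), 5′ to 3′ on the strand of the gene. Capitals mark matches to the words searched on both strands, which were a CArG box (the SRF site) with at most 1 mismatch, the FOXO word GTAAACA, the AP-1 word TGANTCA, the CRE word TGACGTCA and the ETS word CCGGAAG.
Mcl1 (chr3:95658471-95658720, plus strand): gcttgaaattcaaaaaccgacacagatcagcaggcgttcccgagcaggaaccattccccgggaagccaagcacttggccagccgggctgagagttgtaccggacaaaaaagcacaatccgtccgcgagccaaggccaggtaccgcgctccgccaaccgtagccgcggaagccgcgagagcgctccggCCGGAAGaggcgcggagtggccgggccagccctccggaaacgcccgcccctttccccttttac
Bmf, the start farthest 5′ of 3 (chr2:118549687-118549936, minus strand): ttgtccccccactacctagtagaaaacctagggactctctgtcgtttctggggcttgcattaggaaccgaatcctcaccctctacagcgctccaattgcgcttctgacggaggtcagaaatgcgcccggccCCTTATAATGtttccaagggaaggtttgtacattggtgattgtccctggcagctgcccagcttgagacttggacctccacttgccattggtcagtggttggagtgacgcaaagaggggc
Bcl2l11, the start farthest 5′ of 2 (chr2:128125788-128126037, plus strand): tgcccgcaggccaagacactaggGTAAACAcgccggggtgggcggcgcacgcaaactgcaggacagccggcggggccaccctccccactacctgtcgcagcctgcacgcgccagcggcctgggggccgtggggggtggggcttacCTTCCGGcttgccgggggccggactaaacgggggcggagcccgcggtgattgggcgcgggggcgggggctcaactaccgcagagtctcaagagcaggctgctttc

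The Mcl1 run held the ETS word from 63 bases upstream of the start and no match to the others. The Bmf run held a CArG-like stretch with 1 mismatch, CCTTATAATG, from 119 bases upstream. In Bcl2l11 the FOXO word lay 227 bases upstream and an ETS word, on the other strand, 105 bases upstream. Over 32851 windows of the same length before RefSeq starts, the CArG box with at most 1 mismatch occurred in 18.6%, the exact CArG box in 1.47%, the FOXO word in 3.17%, the AP-1 word in 6.75%, the CRE word in 1.55% and the ETS word in 6.91%. Windows were found for 9 of the 10 genes, 17 in all, and among the other 14 windows there was a single further match, a FOXO word 167 bases upstream of 1 of the 3 starts of Bbc3. These are letter matches, not measured binding sites.

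Compared per length, as RPKM (reads scaled for exon length and for library depth), Mcl1 was the highest of the 10 transcripts in every group, with means of 25.3 ± 0.785 (SD, n = 3) in starved control, 100.5 ± 3.09 in stimulated control, 38.5 ± 1.43 in starved Lap2-depleted and 147 ± 4.66 in stimulated Lap2-depleted cells. In starved control cells it was followed by Bak1 (21.9), Bax (19.5) and Bad (18.8), whose ranges overlapped from each gene to the next. Bcl2l1 (9.53), Bmf (9.21), Bbc3 (8.56) and Bcl2l11 (7.03) formed a lower tier of overlapping neighbours, and Bcl2 (1.89) and Pmaip1 (0.346) lay below it. In stimulated control cells the order was Mcl1, Bak1 (21.2), Bax (20.2), Bcl2l1 (17.5), Bad (15.0), Bcl2l11 (4.83), Bbc3 (3.67), Pmaip1 (2.74), Bcl2 (2.42) and Bmf (1.11), and of these neighbours Bak1 and Bax overlapped. Thus Bmf stood in the middle of the order in starved control cells and was last after serum. Exon length is that of all annotated exons of a gene merged, 1576 bases for Bax and 9157 for Bcl2. Exons unused in these cells would lower a value, so orders between genes and sums by role depend on this length.

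Starved Lap2-depleted cells had the order Mcl1, Bax (27.3), Bak1 (23.3), Bad (17.9), Bcl2l1 (7.96), Bbc3 (6.45), Bmf (4.82), Bcl2l11 (3.16), Bcl2 (2.74) and Pmaip1 (0.184), and the ranges of Bax and Bak1 and of Bcl2l11 and Bcl2 overlapped. After serum the Lap2-depleted order was Mcl1, Bak1 (26.5), Bax (20.7), Bad (17.6), Bcl2l1 (14.7), Bbc3 (3.86), Bcl2l11 (3.24), Bcl2 (2.43), Bmf (2.07) and Pmaip1 (0.663), with overlap between Bcl2 and Bmf. Among stimulated cells, Pmaip1 ranked above Bcl2 and Bmf with control siRNA and last with Lap2 siRNA.

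**Figure D1:**
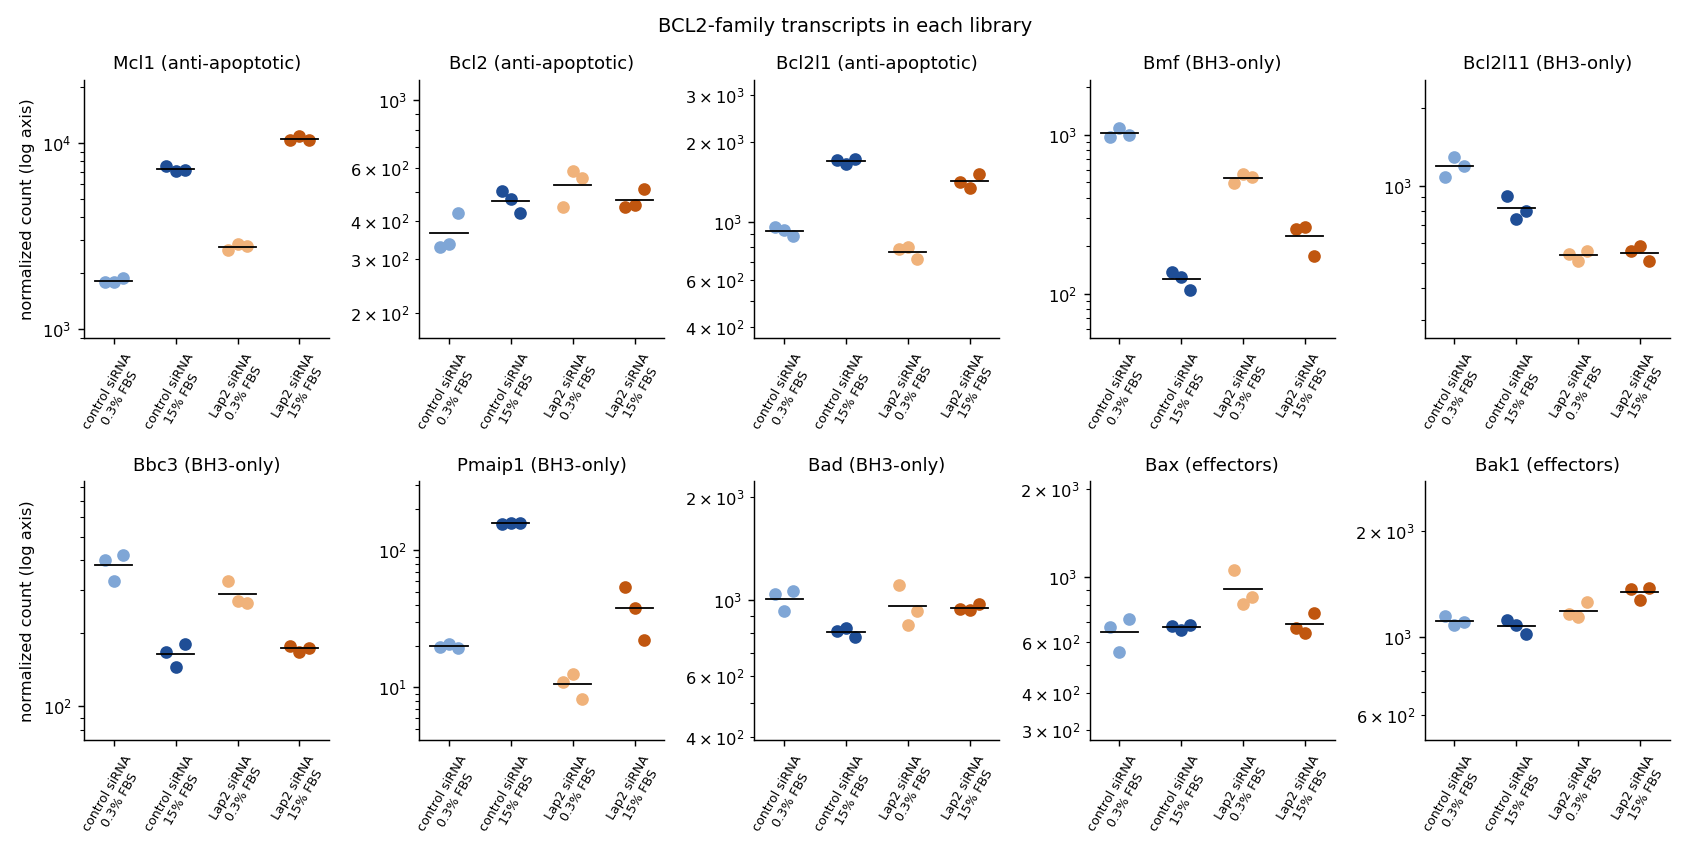
Normalized counts (log axis) of the 10 BCL2-family transcripts in each of the 12 libraries, 1 panel per gene; points are libraries, horizontal lines are group means, and colours are the 4 groups. The Mcl1 points of both stimulated groups lie at 7096 or more, above all starved points, while the Bmf points of both stimulated groups lie at 262 or less, below all starved points.

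Summed by role on the same per-length scale, the anti-apoptotic transcripts came to 36.7 ± 0.727 RPKM in starved control and 120 ± 3.40 in stimulated control cells, and to 49.2 ± 1.87 and 164 ± 3.97 in the corresponding Lap2-depleted cells. Mcl1 made up 68.9 ± 0.827% and 83.5 ± 0.248% of that sum in control cells, and 78.3 ± 0.554% and 89.6 ± 0.798% with Lap2 siRNA. The BH3-only sum was 43.9 ± 1.51 in starved control cells against 32.5 ± 2.93 in starved Lap2-depleted cells, and 27.4 ± 0.714 and 27.5 ± 0.549 in the 2 stimulated groups. Bmf accounted for a mean of 21.0% of the BH3-only sum in starved control (19.8 to 23.5% over the libraries), 4.06% in stimulated control (3.51 to 4.40%), 15.0% in starved Lap2-depleted (12.4 to 16.97%) and 7.52% in stimulated Lap2-depleted cells (5.80 to 8.57%). The effector sum was 41.4 ± 2.97 and 41.4 ± 0.915 in starved and stimulated control cells and 50.6 ± 3.96 and 47.2 ± 2.64 with Lap2 siRNA. These sums are a description and were not tested.

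**Figure D2:**
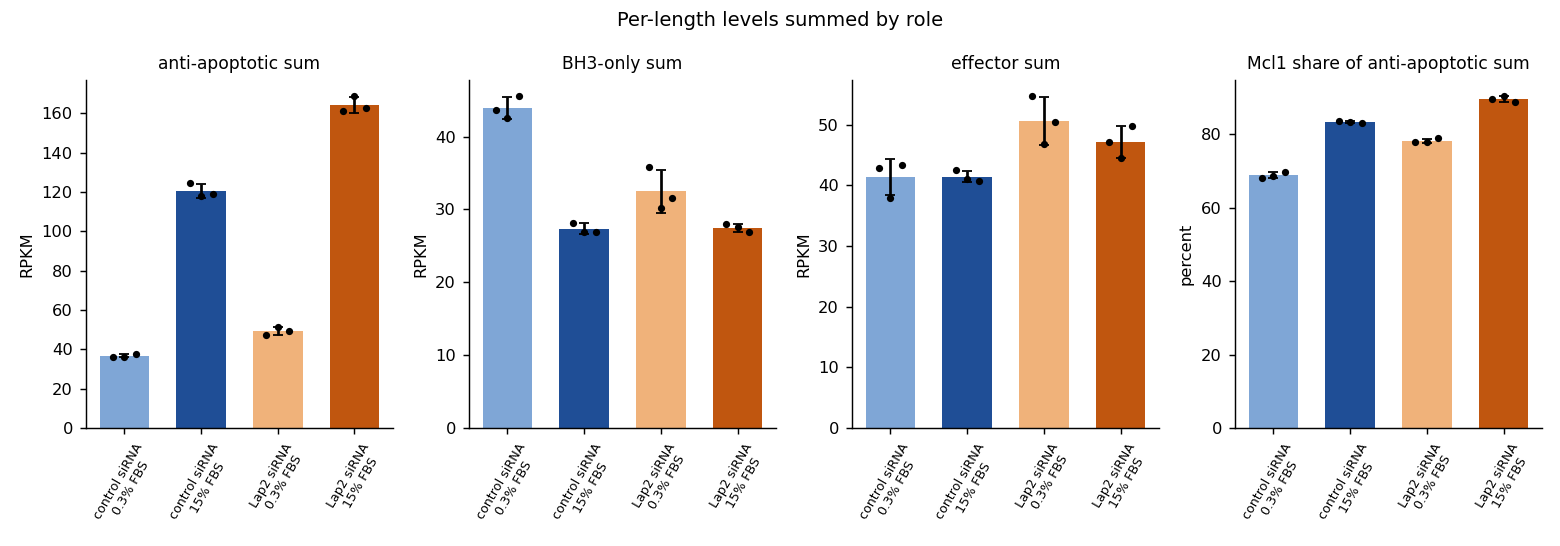
Per-length levels (RPKM) summed over the anti-apoptotic, BH3-only and effector transcripts, and the percent of the anti-apoptotic sum that was Mcl1; bars are means of 3 libraries, error bars are SD and points are libraries. The anti-apoptotic sum is between 118 and 169 in the stimulated libraries and between 36.2 and 51.2 in the starved ones.

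Serum responses of the family ran in several directions. Because the genes were selected on this contrast, its values are given without calls. The 3 anti-apoptotic transcripts had positive values in control cells, Mcl1 1.99, Bcl2l1 0.88 and Bcl2 0.36 on the log2 scale. Of the BH3-only transcripts Bmf (-3.04), Bbc3 (-1.22), Bcl2l11 (-0.54) and Bad (-0.32) had negative values and Pmaip1 (2.97) a positive one, and the effectors Bax (0.06) and Bak1 (-0.05) were near 0. These values depend on the scaling: without TMM, scaling to total counts shifted the median of all genes by -0.21 with control siRNA and by -0.23 with Lap2 siRNA, so each value is best read relative to that shift.

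**Figure D3:**
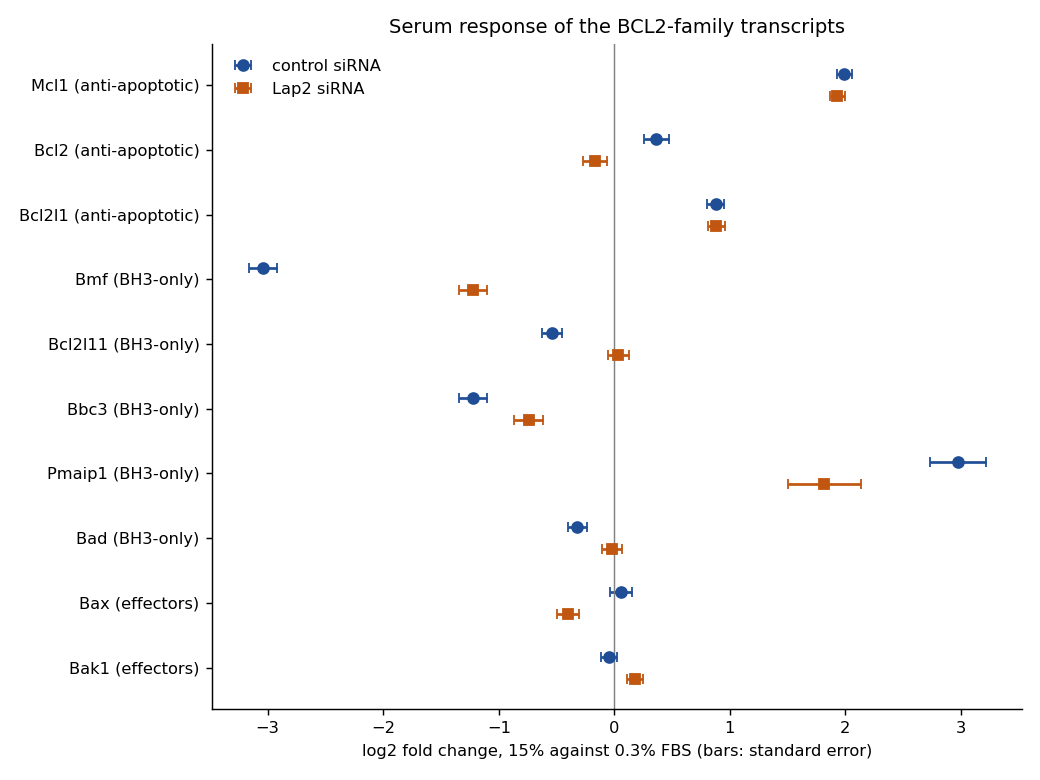
Log2 fold change of each BCL2-family transcript in 15% against 0.3% FBS, with control siRNA (circles) and Lap2 siRNA (squares); bars are standard errors. Mcl1 sits near 2 with either siRNA, whereas Bmf moves from -3.04 with control siRNA to -1.22 with Lap2 siRNA.

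Mcl1 (ENSMUSG00000038612; mm10 chromosome 3, 95658788 to 95663176, plus strand) encodes an anti-apoptotic protein that binds BIM, PUMA and NOXA as well as BAK. Its normalized counts were 1784, 1796 and 1888 in the starved control libraries, 7502, 7096 and 7139.5 in the stimulated control libraries, 2670.0, 2874 and 2792 in the starved Lap2-depleted libraries, and 10393, 10982 and 10409 in the stimulated Lap2-depleted libraries. The 4 groups did not overlap, and within each serum condition every Lap2-depleted library was above every control library. Lap2 siRNA raised Mcl1 by 0.61 ± 0.06 (SE) on the log2 scale in 0.3% FBS and by 0.55 ± 0.06 in 15% FBS, 1.52-fold and 1.46-fold (adjusted p = 8.4e-10 and 8.6e-09, edgeR quasi-likelihood test). Its level in 15% FBS was 3.98 times that in 0.3% FBS under control siRNA and 3.81 times under Lap2 siRNA, a difference of -0.06 ± 0.09 on the log2 scale, given without a test. This difference was -0.11 without starved control replicate 3 and -0.12 without starved Lap2-depleted replicate 1. Gene counts do not separate the long anti-apoptotic Mcl1 isoform from shorter splice forms with other activity.

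Bcl2l1 (ENSMUSG00000007659; chromosome 2, 152780668 to 152831728, minus strand) encodes BCL-XL and, through an alternative splice site, the pro-apoptotic BCL-XS, which these counts do not separate. Starved control libraries had 956, 925 and 884 normalized counts and stimulated control libraries 1707, 1654 and 1719.6. With Lap2 siRNA the values were 785, 802 and 723 in 0.3% FBS and 1407, 1344 and 1510.1 in 15% FBS, in each condition below every control library. Bcl2l1 fell with Lap2 siRNA, opposite to Mcl1, with a log2 fold change of -0.26 ± 0.07 in 0.3% FBS (adjusted p = 0.0046, edgeR) and -0.25 ± 0.07 in 15% FBS (adjusted p = 0.006). The first call was lost without starved Lap2-depleted replicate 3 (-0.20, adjusted p = 0.059) and the second without stimulated Lap2-depleted replicate 2 (-0.21, adjusted p = 0.055). Both were also lost when libraries were scaled to total counts (-0.15 and -0.17, adjusted p = 0.11 and 0.074). The serum response was 1.84-fold with control siRNA and 1.85-fold with Lap2 siRNA, and the difference between them was 0.01 with a 95% interval of -0.20 to 0.21 (adjusted p = 0.98).

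Bcl2 (ENSMUSG00000057329; chromosome 1, 106538178 to 106714274, minus strand), the founding anti-apoptotic member, was the lowest of the 3 per length. Its normalized counts were 329.7, 338 and 427 in starved control, 503, 473 and 425 in stimulated control, 445, 585 and 555 in starved Lap2-depleted and 446, 452 and 510.1 in stimulated Lap2-depleted libraries. The starved control libraries were below the starved Lap2-depleted ones, and the 2 stimulated groups overlapped. Lap2 siRNA raised Bcl2 by 0.54 ± 0.11 on the log2 scale in 0.3% FBS (adjusted p = 0.00016, edgeR), and the difference in 15% FBS was 0.01 with a 95% interval of -0.21 to 0.23 (adjusted p = 0.98). The change in serum response, -0.53 ± 0.15, passed the test (adjusted p = 0.017). That call was lost without starved control replicate 1 or 2 (-0.46 and -0.48, adjusted p = 0.058 in both), stimulated control replicate 1 (-0.48, adjusted p = 0.055) or stimulated Lap2-depleted replicate 1 (-0.49, adjusted p = 0.053). Exons of D630008O14Rik overlap Bcl2 on the opposite strand. The library kit keeps strand but the strand setting of the counting is not given in the sources used here, so that reads of the overlap may belong to either gene.

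Among the BH3-only genes, Bmf (ENSMUSG00000040093; chromosome 2, 118528757 to 118549687, minus strand) encodes a protein held on the myosin V motor complex in healthy cells. Its normalized counts were 959.8, 1106 and 997 in starved control libraries and 138, 128 and 105 in stimulated control libraries. With Lap2 siRNA they were 493, 567 and 543 before serum and 254, 262 and 173 after it. The 4 groups did not overlap, and the Lap2-depleted libraries lay between the starved and the stimulated control libraries in both conditions. Lap2 siRNA lowered Bmf in 0.3% FBS by a log2 fold change of -0.94 ± 0.10 (adjusted p = 6.8e-09, edgeR) and raised it in 15% FBS by 0.88 ± 0.14 (adjusted p = 7.6e-06). The serum response was thereby 8.22-fold lower with control siRNA and 2.34-fold lower with Lap2 siRNA. This difference of 1.82 ± 0.17 on the log2 scale is given without a test, since Bmf was selected on its serum response. The same libraries that gave the choice enter both Lap2 comparisons. Choosing Bmf for a fall with serum favours high starved and low stimulated control values. That favours the signs seen in both comparisons, so their p-values are not free of the choice.

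Bcl2l11 (ENSMUSG00000027381; chromosome 2, 128126038 to 128162547, plus strand) encodes BIM, which binds all the anti-apoptotic proteins and can activate BAX and BAK. Starved control libraries had 1083, 1292 and 1195 normalized counts and stimulated control libraries 912, 743 and 799.6. The starved Lap2-depleted libraries had 541, 509 and 555 and the stimulated ones 554, 582 and 510.1. Control libraries were thus above all Lap2-depleted libraries, and the 2 Lap2-depleted groups overlapped with each other. Lap2 siRNA lowered Bcl2l11 2.22-fold in 0.3% FBS (log2 fold change -1.15 ± 0.09, adjusted p = 9.6e-13, edgeR) and 1.49-fold in 15% FBS (-0.58 ± 0.09, adjusted p = 5.2e-06). Its log2 serum response was -0.54 under control siRNA and 0.04 under Lap2 siRNA, and their difference of 0.58 ± 0.12 passed the test (adjusted p = 0.0011). The value of 0.04 changed sign when libraries were scaled to total counts (-0.19) or by the upper quartile (-0.07).

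Bbc3 (ENSMUSG00000002083; chromosome 7, 16308393 to 16318205, plus strand) encodes PUMA, a BH3-only protein known as a p53 target. Its normalized counts were 399, 329 and 422 in starved control, 167, 145 and 181 in stimulated control, 329, 273 and 266 in starved Lap2-depleted and 178, 168 and 174 in stimulated Lap2-depleted libraries. The lowest starved control library stood within 1 count of the highest starved Lap2-depleted one, and the stimulated groups overlapped. Bbc3 fell by 0.40 ± 0.11 on the log2 scale with Lap2 siRNA in 0.3% FBS (adjusted p = 0.0051, edgeR), a call that was lost without starved control replicate 3 (-0.31, adjusted p = 0.059). In 15% FBS the difference was 0.08 with a 95% interval of -0.19 to 0.34 (adjusted p = 0.76). The change in serum response, 0.48 ± 0.17, missed the threshold (adjusted p = 0.064) and passed it without starved control replicate 2 (0.58, adjusted p = 0.027) or without starved Lap2-depleted replicate 1 (0.56, adjusted p = 0.017).

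Pmaip1 (ENSMUSG00000024521; plus strand) encodes NOXA, which binds MCL1 preferentially. It was the least abundant of the 10 transcripts per length in every group except stimulated control, with 19.6, 20.8 and 19.4 normalized counts in starved control libraries and 157, 157 and 159 in stimulated control libraries. With Lap2 siRNA the values were 11.0, 12.5 and 8.24 before serum and 54.3, 38.2 and 22.2 after it. The 4 groups did not overlap, and the stimulated Lap2-depleted libraries spread the most. In 15% FBS Lap2 siRNA lowered Pmaip1 4.18-fold (log2 fold change -2.06 ± 0.22, adjusted p = 7.4e-09, edgeR). In 0.3% FBS, where each Lap2-depleted library held 8 to 12 reads, the log2 fold change was -0.91 ± 0.35 (adjusted p = 0.04). That call was lost in 5 of the fits that left out 1 library: without starved control replicate 1, 2 or 3 (-0.92, -0.87 and -0.91, adjusted p = 0.069, 0.093 and 0.071) and without starved Lap2-depleted replicate 1 or 3 (-0.92 and -0.75, adjusted p = 0.067 and 0.14). It was also lost with total-count scaling (-0.80, adjusted p = 0.069) and in a fit of these 2 groups alone (-0.92, adjusted p = 0.11). Its level in 15% FBS was 7.86 times that in 0.3% FBS under control siRNA and 3.53 times under Lap2 siRNA. Their log2 difference of -1.16 ± 0.43 missed the threshold (adjusted p = 0.074), and reached -1.49 (adjusted p = 0.02) without stimulated Lap2-depleted replicate 1.

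Bad (ENSMUSG00000024959; chromosome 19, 6941861 to 6951898, plus strand) encodes a BH3-only protein that growth factor kinases inactivate by phosphorylation. It had 1045, 928 and 1064 normalized counts in starved control, 815, 833 and 782 in stimulated control, 1112, 849 and 933 in starved Lap2-depleted and 944, 938 and 974 in stimulated Lap2-depleted libraries. The starved groups overlapped, with a log2 difference of -0.07 and a 95% interval of -0.24 to 0.10 (adjusted p = 0.59, edgeR). The stimulated groups did not overlap, and Bad was higher by 0.23 ± 0.08 with Lap2 siRNA (adjusted p = 0.043). This small difference was close to the threshold: it was lost in 8 of the 12 fits that left out 1 library, with values of 0.20 to 0.25 (adjusted p = 0.053 to 0.16), and with DESeq2 (0.22, adjusted p = 0.054). The 8 libraries were starved control replicate 3, starved Lap2-depleted replicate 3, and each of the 3 stimulated control and 3 stimulated Lap2-depleted replicates. The change in serum response was 0.30 ± 0.12 (adjusted p = 0.097), and 0.39 (adjusted p = 0.0048) without starved Lap2-depleted replicate 1. Bad shares exon sequence with Gpr137 on the opposite strand.

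The effector Bax (ENSMUSG00000003873; chromosome 7, 45461697 to 45466898, minus strand), whose product moves from the cytosol to the mitochondrion on activation, had 672, 554 and 718 normalized counts in starved control and 677, 656 and 686 in stimulated control libraries. Starved Lap2-depleted libraries had 1058, 808 and 854 and stimulated ones 670.0, 644 and 751. The starved Lap2-depleted libraries were above all others. Lap2 siRNA raised Bax 1.40-fold in 0.3% FBS (log2 fold change 0.49 ± 0.10, adjusted p = 0.0001, edgeR), while in 15% FBS the difference was 0.03 with a 95% interval of -0.17 to 0.23 (adjusted p = 0.87). Its serum response was 0.06 under control siRNA, or -0.15 with total-count scaling, and -0.40 under Lap2 siRNA. The difference of -0.46 ± 0.14 passed the test (adjusted p = 0.022), but not without starved control replicate 2 (-0.35, adjusted p = 0.1), stimulated Lap2-depleted replicate 1 (-0.44, adjusted p = 0.058) or stimulated Lap2-depleted replicate 2 (-0.41, adjusted p = 0.074). Exons of Gm45808 overlap Bax on the same strand, and reads of that overlap cannot be assigned to either gene alone.

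Bak1 (ENSMUSG00000057789; chromosome 17, 27019810 to 27029009, minus strand) encodes the effector that resides on the mitochondrion. Normalized counts were 1149, 1080.4 and 1100.2 in starved control, 1121, 1079 and 1022 in stimulated control, 1159.6, 1139 and 1256 in starved Lap2-depleted and 1372, 1277 and 1382 in stimulated Lap2-depleted libraries. The stimulated Lap2-depleted libraries were above all others, and the starved groups overlapped. Bak1 rose with Lap2 siRNA in 15% FBS by 0.32 ± 0.07 on the log2 scale (adjusted p = 0.00068, edgeR). In 0.3% FBS the difference was 0.09 with a 95% interval of -0.05 to 0.24 (adjusted p = 0.33), and 0.20 with total-count scaling (adjusted p = 0.021). The change in serum response was 0.23 ± 0.10 (adjusted p = 0.14). Part of its exons overlap Ggnbp1 on the opposite strand.

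**Figure D4:**
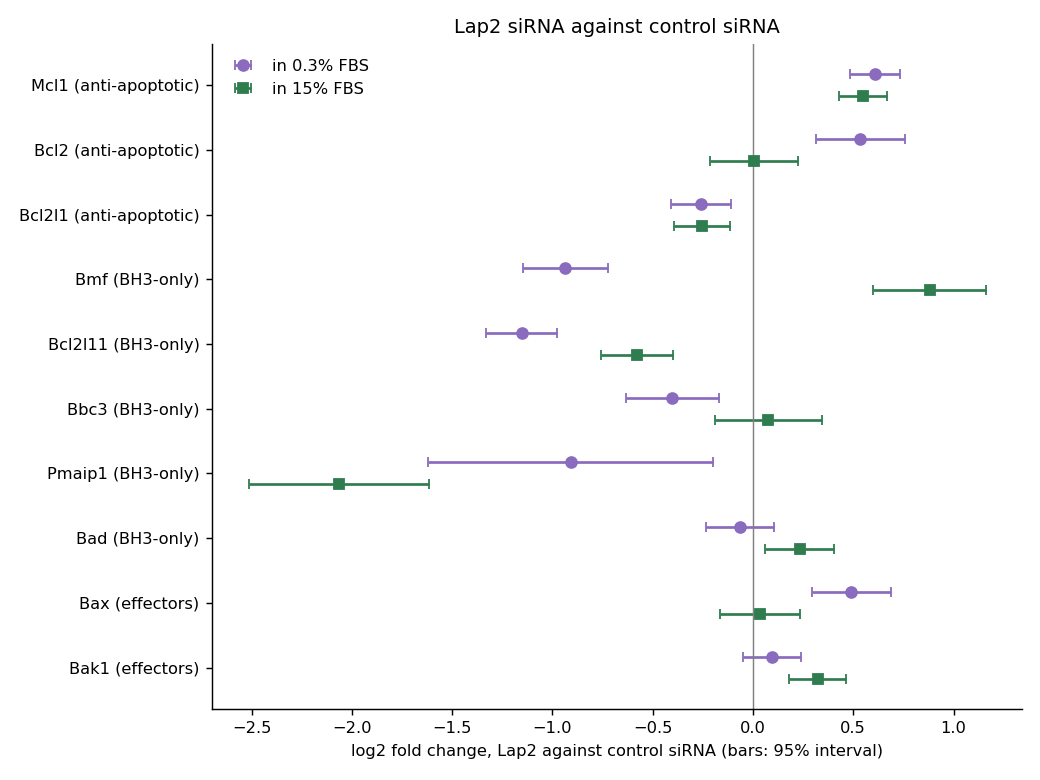
Log2 fold change of each BCL2-family transcript with Lap2 against control siRNA in 0.3% FBS (circles) and 15% FBS (squares); bars are 95% intervals. Bmf lies at -0.94 in 0.3% FBS and at 0.88 in 15% FBS, while Mcl1 lies above 0 and Bcl2l11 and Pmaip1 below 0 in both.

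Counted over the family, Lap2 siRNA in 0.3% FBS raised 3 of the 10 transcripts (Mcl1, Bcl2 and Bax), lowered 5 (Bcl2l1, Bmf, Bcl2l11, Bbc3 and Pmaip1) and left Bad and Bak1 past no threshold. Over all genes tested 17.8% rose and 18.6% fell. Those shares include genes with few reads. With the stricter default count filter of edgeR, 13987 genes were tested, of which 3286 rose and 3491 fell. The median log2 fold change was -0.16 for the 10 transcripts and 0.01 for all genes. By role within the 10, 2 of 3 anti-apoptotic transcripts rose and 1 fell, 4 of 5 BH3-only transcripts fell and none rose, and 1 of 2 effectors rose. Of 9 other family genes tested, 3 rose and 4 fell. The BH3-only gene Bid rose (0.59, adjusted p = 5.3e-05, edgeR). Bcl2l2, an anti-apoptotic gene, fell (-0.18, adjusted p = 0.048, edgeR), a call close to the threshold, and was higher in 15% FBS (0.41, adjusted p = 3.9e-05). The count of lowered transcripts was 3 without starved control replicate 3, without starved Lap2-depleted replicate 3, or with total-count scaling. That scaling shifted the median of all genes by 0.11, and the split of all calls from 3330 higher and 3480 lower to 4692 higher and 2638 lower.

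After serum, 4 of the 10 transcripts were higher with Lap2 siRNA (Mcl1, Bmf, Bad and Bak1), 3 were lower (Bcl2l1, Bcl2l11 and Pmaip1), and Bcl2, Bbc3 and Bax passed no threshold. All genes gave 11.4% higher and 12.1% lower, and the medians were 0.06 for the 10 transcripts and 0.02 for all genes. Under the stricter filter 2136 of 13987 genes were higher and 2401 lower. Total-count scaling moved the split of all calls from 2125 higher and 2250 lower to 3471 higher and 1678 lower. Of the 8 transcripts whose change in serum response was tested, 1 was higher (Bcl2l11), 2 were lower (Bcl2 and Bax) and 5 passed no threshold, beside 7.09% higher and 6.51% lower among all genes. The count of higher ones was 3 without starved Lap2-depleted replicate 1 and 2 without starved control replicate 2. The count of lower ones was 0 without starved control replicate 2, and 1 without starved control replicate 1, stimulated control replicate 1 or stimulated Lap2-depleted replicate 1 or 2.

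Of 51 other apoptosis genes in 5 lists, 44 passed the low-count filter. With Lap2 siRNA 13 rose and 9 fell in 0.3% FBS and 8 rose and 10 fell in 15% FBS, with medians of 0.02 and 0.03. The change in serum response was higher for 2 and lower for 5. Among all genes tested 17.8% rose and 18.6% fell in 0.3% FBS, and 11.4% rose and 12.1% fell in 15% FBS. Their change in serum response was higher for 7.09% and lower for 6.51%. The counts per list below are to be read beside these shares, and the lists were chosen with earlier results of these data known. In 15% FBS the genes called higher were 4 without stimulated control replicate 2 or stimulated Lap2-depleted replicate 3 and 5 without stimulated control replicate 3, and those called lower were 6 without stimulated control replicate 1. Without starved Lap2-depleted replicate 1, 11 in place of 5 had a lower serum response. In 0.3% FBS the genes called lower were 6 without starved control replicate 1 or 3 or starved Lap2-depleted replicate 2, and 7 with DESeq2. Among the apoptosome and mitochondrial factors, a list that also holds Vdac1 and Vdac2, 5 of 8 rose in 0.3% FBS and none fell. The 5 included Vdac2 (log2 fold change 0.31 ± 0.06, adjusted p = 0.00013, edgeR). They included Cycs, the gene of cytochrome c, with 562, 507 and 580.3 normalized counts in starved control and 1054, 760.4 and 849 in starved Lap2-depleted libraries (log2 fold change 0.70 ± 0.09, adjusted p = 2.9e-07, edgeR). Aifm1, which encodes apoptosis-inducing factor, went from 1046, 954 and 1022 to 1507.6, 1537 and 1617 (0.63 ± 0.07, adjusted p = 1.4e-08) and was also higher in 15% FBS (0.47 ± 0.07, adjusted p = 8e-06). After serum 1 of these 8 rose and 7 passed no threshold.

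Caspases and IAP proteins, the proteases of apoptosis and their inhibitors, moved both ways: 3 of 11 rose and 3 fell in 0.3% FBS, and 2 rose and 3 fell in 15% FBS. Birc5, which encodes survivin, rose in 0.3% FBS from 517, 452 and 488 to 1089, 866 and 895 normalized counts (0.97 ± 0.09, adjusted p = 1.9e-10, edgeR). In 15% FBS its log2 fold change was 0.28 ± 0.10 (adjusted p = 0.031), a call lost without stimulated control replicate 2 or 3 or stimulated Lap2-depleted replicate 2 or 3 (0.21 to 0.27, adjusted p = 0.086 to 0.18). Casp9, the initiator caspase of the apoptosome, fell in both conditions, from 602, 725 and 635 to 316, 349.5 and 348 in 0.3% FBS (-0.96 ± 0.10, adjusted p = 8.8e-10) and from 589, 542 and 559.8 to 388, 327 and 309 in 15% FBS (-0.73 ± 0.10, adjusted p = 7e-07). Xiap, a direct caspase inhibitor, fell in 0.3% FBS (-0.69 ± 0.08, adjusted p = 5.5e-09) and in 15% FBS (-0.48 ± 0.08, adjusted p = 1e-05). Every Lap2-depleted library was below every control library for Casp9 and for Xiap in both conditions.

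In the death receptor arm 2 of 7 tested genes fell and none rose in 0.3% FBS, and 3 fell and 1 rose in 15% FBS. Fas, a death receptor, had 361, 360.4 and 332 normalized counts in starved control and 231, 153 and 199.8 in starved Lap2-depleted libraries (-0.85 ± 0.13, adjusted p = 1.7e-06, edgeR), and also fell in 15% FBS (-0.54 ± 0.11, adjusted p = 0.00026). Tnfrsf10b, the TRAIL receptor, had 2135, 2058 and 2316 in stimulated control and 1111, 1069.9 and 1067 in stimulated Lap2-depleted libraries (-1.003 ± 0.07, adjusted p = 7.3e-13), and also fell in 0.3% FBS (-0.38 ± 0.07, adjusted p = 0.00011). The rise of Fadd in 15% FBS (0.45 ± 0.16, adjusted p = 0.033) was lost without stimulated control replicate 2 or 3 or stimulated Lap2-depleted replicate 2 or 3 (0.35 to 0.44, adjusted p = 0.082 to 0.19).

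Among the other BCL2-family genes, 9 of 15 were tested, and 3 rose and 4 fell in 0.3% FBS and 3 rose and 3 fell in 15% FBS. Bid, a BH3-only gene whose product is cleaved by caspase-8, rose in 15% FBS from 130.4, 139 and 120.4 to 225, 226 and 262 normalized counts (0.87 ± 0.12, adjusted p = 1.3e-06, edgeR), and was also higher with Lap2 siRNA in 0.3% FBS (0.59 ± 0.11, adjusted p = 5.3e-05). Bok, an effector-like gene, fell in 15% FBS from 1192, 1099 and 1165 to 769, 598 and 887 (-0.62 ± 0.11, adjusted p = 8.5e-05). In 0.3% FBS Bok was higher with Lap2 siRNA (log2 fold change 0.56, adjusted p = 0.00093), and its change in serum response was -1.17 ± 0.17 (adjusted p = 8.2e-06), values quoted after they had been seen. Of the 4 calls of a fall in 0.3% FBS, that of Bik rests on a mean of 2.64 normalized counts in starved control and 0 in every starved Lap2-depleted library. It was singled out after its values were seen. Of the 9 genes for turnover or sequestration of MCL1 and BH3-only proteins, 2 rose and none fell in 0.3% FBS, and 1 rose and 1 fell in 15% FBS.

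**Figure D5:**
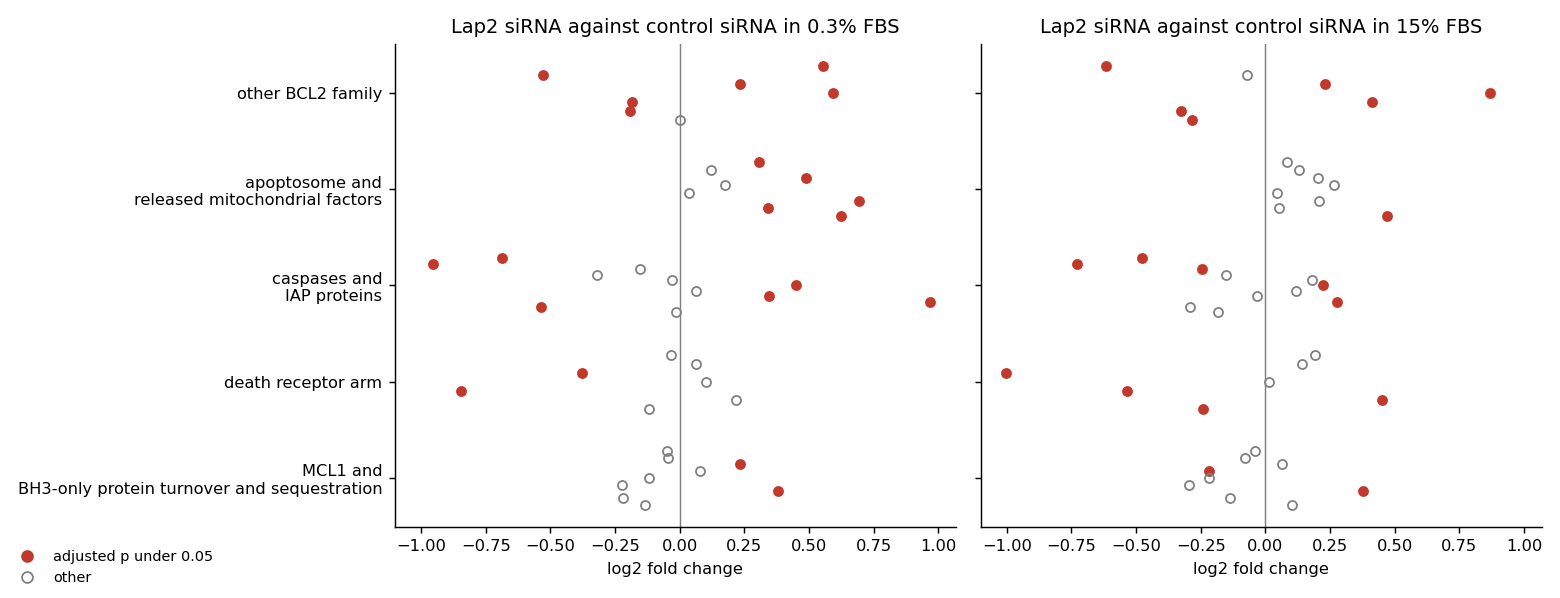
Log2 fold change with Lap2 against control siRNA in 0.3% FBS (left) and 15% FBS (right) for the 42 other apoptosis genes whose mean reached 10 normalized counts in either group; each point is a gene, filled where the adjusted p was under 0.05. The apoptosome and mitochondrial factors all lie right of 0, and 5 of these 8 are filled in 0.3% FBS against 1 in 15% FBS. Among all genes tested 17.8% were called higher in 0.3% FBS and 11.4% in 15% FBS.

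The transcripts whose pattern over the 12 libraries was most like that of Mcl1 were Pvr, Csf1 and Erf, with root mean square differences of 0.107, 0.165 and 0.179 in centred log2 CPM (counts scaled to library size). The median over the 10449 genes compared was 1.03. Pvr had serum responses of 2.15 under control siRNA and 1.94 under Lap2 siRNA on the log2 scale, Csf1 2.17 and 2.22, and Erf 1.67 and 2.03. Their Lap2 effects in 0.3% and 15% FBS were 0.60 and 0.40 for Pvr, 0.47 and 0.52 for Csf1, and 0.19 and 0.55 for Erf. Nearest to Bmf were Pik3ip1, Txnip and Zswim3, at differences of 0.365, 0.372 and 0.379, with a median of 1.20 over the same genes. Pik3ip1 had serum responses of -2.15 under control siRNA and -1.13 under Lap2 siRNA, Txnip -2.70 and -0.95, and Zswim3 -2.20 and -1.81. The Lap2 effect on Pik3ip1 was -0.32 in 0.3% FBS and 0.70 in 15% FBS, the signs seen in Bmf. Txnip (-1.54 and 0.20) and Zswim3 (-0.15 and 0.24) had these signs too. Likeness over these libraries selects for such signs. Likeness is a description of these 12 libraries and carries no test.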

How the data were processed

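RNA-seq libraries of NIH 3T3 cells (4 groups of 3) were made by the authors from rRNA-depleted RNA with a strand-keeping kit. Per the labels and the study's methods, the authors aligned reads to mm10 (GRCm38) with TopHat2 and counted reads per Ensembl gene with HTSeq. The deposited values are raw counts, and versions, annotation release and strand setting are not given in the sources used here.

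The 18668 genes counted above 1 in 3 or more libraries were fitted in R 4.3.3 with edgeR 4.0.16 (TMM, quasi-likelihood test, 1 mean per group), with Benjamini-Hochberg adjustment over all genes tested and a threshold of 0.05. Intervals are 95%. Alternatives were DESeq2 1.42.0, total-count and upper-quartile scaling, other count filters, a replicate block and each library left out. Per-length levels used merged exons of GENCODE gene models. Promoters came from RefSeq. The script was tested on simulated data.

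The members and gene lists were chosen with earlier results of these data known. All 10 members and Tmpo are named. Other apoptosis genes are named where they were among the 3 largest called changes per direction and Lap2 comparison, with means of 100 normalized counts or more and no overlap between groups. Bik, Bcl2l2, Vdac1 and Vdac2, outside this rule, were named after their values were seen. Replicate numbers, assigned here by the order of the labels, did not pair the libraries. The labels name no pairing across groups, and whether such a pairing exists was not tested. Isoforms cannot be separated.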

Additional observations from a re-analysis of the deposited data

Results flagged for a closer look

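The serum response differed between control and Lap2 siRNA by the test of that difference for Bcl2l11 (0.58 on the log2 scale, adjusted p = 0.0011, edgeR), Bcl2 (-0.53, adjusted p = 0.017) and Bax (-0.46, adjusted p = 0.022). For Bmf the effect of Lap2 siRNA had opposite signs in the 2 serum conditions, -0.94 in 0.3% FBS and 0.88 in 15% FBS. Every Lap2-depleted library was on the same side of the control libraries in each condition. The difference between the 2 conditions was not tested, and choosing Bmf on its serum response favours these signs.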

How the results depend on the processing

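With total-count scaling, 3 of the 10 transcripts were called lower with Lap2 siRNA in 0.3% FBS (against 5) and the other apoptosis genes called in 15% FBS were 14 higher and 6 lower (against 8 and 10). Its serum response of Bak1 in Lap2-depleted cells was -0.049, against 0.18. Upper-quartile scaling shifted the median serum response of all genes by -0.10 with control siRNA and by -0.11 with Lap2 siRNA. DESeq2 gave 10 other apoptosis genes with a lower serum response, against 5. With 1 library left out, counts ranged from 3 to 5 for transcripts lower in 0.3% FBS, from 4 to 11 and from 6 to 13 for other apoptosis genes higher and lower in 15% FBS, from 1 to 3 and from 0 to 2 for transcripts whose serum response was higher and lower, and from 4 to 11 for other apoptosis genes whose serum response was lower. Causes were not tested. Same-numbered libraries did not deviate together (correlations of -0.03 to 0.04, and 4 of 12 libraries were closest to their own number). These numbers follow the order of the labels, so the check and the replicate block cannot decide whether libraries were paired in another way. The replicate block gave 2 transcripts with a higher serum response in place of 1, adding Bbc3 (adjusted p = 0.047). A fit of only the groups compared was not possible for the interaction. Pmaip1, at 8 to 24 reads in starved libraries, is the transcript whose precision depth limits most.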
